A study of Mus musculus with 30 samples.

Results

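The genes of oxidative phosphorylation, nuclear and mitochondrial, were followed in RNA-seq libraries of mouse microglia isolated in 5 ways. Members were the protein-coding rows of the count table whose symbol begins with Nduf, Uqcr, Cox4 to Cox8, Atp5 or mt-, together with Sdha, Sdhb, Sdhc and Sdhd. The rule used names and no measured value. It found 107 of 54532 rows, of which 94 are encoded in the nucleus and 13 in the mitochondrial genome. Of the nuclear members, 84 are subunits, with 36 of complex I, 4 of complex II, 8 of complex III, 19 of complex IV and 17 of complex V. The other 10 are 8 complex I assembly factors (Ndufaf1 to Ndufaf8), Ndufa4l2, a paralogue of a subunit, and Atp5s, which is named after complex V without being counted here as a subunit of it, so the label of oxidative phosphorylation subunit does not hold for them.

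All 30 libraries came from C57BL/6 mice, 3 for each of 10 groups. The comparison within each protocol was HMGB1, a nuclear protein that acts as a danger signal once released, for 4 h against Control. Protocol 1 used neonates of postnatal day 0 to 3, with 5 mice pooled for each suspension and distinct litters as replicates. The cells were cultured for 10 d with 0.5 ng/ml GM-CSF in Protocol 1A, for 10 d without GM-CSF in Protocol 1B and for 21 d with 0.5 ng/ml GM-CSF in Protocol 1C. Protocol 2 used adults of 6 to 8 weeks, 3 brains pooled, with cells selected by adherence and cultured for 7 d with GM-CSF and M-CSF, each at 100 ng/ml. Protocol 3 used adults of 6 to 8 weeks, from which CD11b-positive cells were taken with magnetic beads and treated without a period of culture. GM-CSF and M-CSF are growth factors for myeloid cells. Age, sort, culture time and growth factor differ together between Protocols 1, 2 and 3 and cannot be told apart there, whereas Protocol 1B differs from 1A in GM-CSF and Protocol 1C from 1A in culture time.

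In oxidative phosphorylation, complexes I to IV pass electrons from NADH and succinate to oxygen along the inner mitochondrial membrane and complex V makes ATP from the proton gradient that results. Complex II is encoded in the nucleus alone, whereas each other complex also holds subunits translated inside the organelle, so that its assembly needs transcripts from both genomes. In macrophages and microglia, inflammatory activation is known to shift energy production away from respiration towards glycolysis.

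The libraries held 14151983 to 28564757 counts, with a median of 21640054. All 10 microglia and macrophage markers were detected in every group. In the Control libraries their sum was highest in Protocol 3, at 5485 to 5710 CPM, and lowest in Protocol 1A, at 2661 to 3043 CPM. Markers of other cells differed between protocols: in the Control libraries the 5 neutrophil markers summed to 312 to 664 CPM (a level relative to the TMM-scaled total of the library) in Protocol 3 and to at most 5.25 CPM elsewhere, and the 4 haemoglobin genes to 348 to 658 CPM in Protocol 3 and to at most 0.267 CPM elsewhere. The 4 fibroblast markers summed to 169 to 253 CPM in Protocol 2 and to 1.79 to 2.41 CPM in Protocol 3. The 4 endothelial markers summed to 81.8 to 101 CPM in the Protocol 3 Controls and to 4.90 to 48.2 CPM in the others. Astrocyte and oligodendrocyte markers were instead lowest in the Protocol 3 Controls. The median astrocyte sum was 8.45 CPM there, 51.2 CPM in Protocol 1A and 32.4 CPM in Protocol 2. The median oligodendrocyte sum was 52.6 CPM in Protocol 3, 139.2 CPM in Protocol 1C and 109.3 CPM in Protocol 2. Markers moved with HMGB1 too: the endothelial sum went from 37.5 to 48.2 CPM in Control to 175 to 265 CPM in Protocol 1C and from 4.90 to 6.07 CPM to 24.9 to 39.9 CPM in Protocol 1B, with the endothelial markers Cldn5 and Ly6c1 at 0 in both treated groups, and the sum of the 4 oligodendrocyte markers went from 80.1 to 87.4 CPM to 31.9 to 40.01 CPM in Protocol 1A. The 2 mitochondrial rRNA genes took 0.0016% of counts in Control replicate 2 and 0.0014% in HMGB1 replicate 2 of Protocol 2, against 0.0611% to 0.0744% in the other 4 libraries of that protocol and 0.189% to 0.292% in Protocol 3. Tnf, a target of inflammatory signalling used as a check of the treatment, was at 16.5 to 34.2 CPM in the Protocol 1 Controls and 2703 to 5936 CPM with HMGB1, and was already at 1038 to 1325 CPM in the Protocol 3 Controls. The part of these differences in the results below was not tested, and in bulk RNA a smaller number of cells of a type and less of a transcript per cell cannot be told apart.

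Nuclear-encoded subunits took the smallest share of the library in the acutely isolated cells of Protocol 3. They made up 0.251%, 0.258% and 0.261% of all counts in the Protocol 3 Controls, 0.582% to 0.628% in Protocol 2 and 0.593% to 0.714% in Protocol 1. The 13 mitochondrially encoded members took 0.419% to 0.451% in Protocol 3, 0.808% to 0.994% in Protocol 2 and 1.24% to 1.76% in Protocol 1. The groups of libraries from the 3 kinds of isolation did not overlap in the mitochondrial share. For the nuclear share, Protocol 3 stood below all others, whereas Protocols 1 and 2 overlapped.

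**Figure D1:**
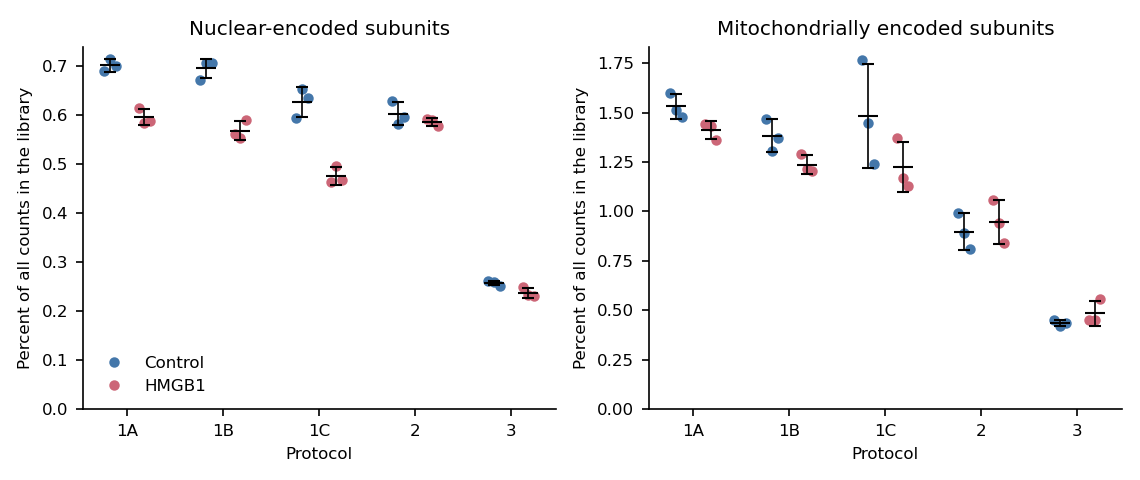
Percent of all counts in each library taken by the nuclear-encoded subunits (left) and by the mitochondrially encoded subunits (right), by protocol, with the mean and SD over 3 libraries in black. Protocol 3 sits lowest in both panels, and in Protocol 1 the HMGB1 libraries have smaller nuclear shares than the Controls.

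Levels per kilobase of the deposited gene length were far from even within a complex. They compare genes only roughly, because the length of the transcript present was not measured. The deposited length is 545 bases for Cox8a and 6883 for Ndufab1. mt-Co1, the catalytic subunit of complex IV that holds the site of oxygen reduction, had the highest level of all members, with means of 4634 CPM per kb in Protocol 1A Controls, 3596 in Protocol 2 and 1238 in Protocol 3. It alone took 40.02% to 68.1% of the mitochondrial counts of a library. mt-Nd1, a membrane subunit of complex I, was next in Protocol 1A at 1303 CPM per kb. Among nuclear members, Cox8a and Cox6a1, small structural subunits of complex IV, reached 229 and 213 CPM per kb in Protocol 1A Controls and 65.7 and 86.6 in Protocol 3. Atp5b, the catalytic beta subunit of ATP synthase, was at 143 CPM per kb in Protocol 1A Controls and 123 in Protocol 3.

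Not every member could be measured. The fits tested 86 to 90 nuclear members, depending on the comparison, because the others were too low: Cox7b2, Cox8c and a second row named Atp5o were at 0 throughout, and Cox8b was tested in no comparison. Of the mitochondrial members, mt-Atp8 was not tested and 12 were.

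A stretch of chromosome 1 carries a near-identical nuclear copy of part of the mitochondrial genome (chr1:24611535-24616197, positions of the annotation that matches the count table), and it limits what can be read of several mitochondrial members. Its 7 annotated pseudogenes were 99.7% to 100% identical to the mitochondrial genes over the aligned bases. Gm28661, the copy of mt-Co2, held 17265 counts over all libraries where mt-Co2 itself held 28036, whereas mt-Co1, of which the copy covers 31.3%, held 3936660. Gm29216, the copy of mt-Co1, was aligned over 483 of its 492 bases. The first bases of mt-Co2 and its copy are shown because a read from them cannot be placed. For mt-Nd3 and mt-Co1, capitals mark the only places within the aligned bases where they differ from their copies.
mt-Co2: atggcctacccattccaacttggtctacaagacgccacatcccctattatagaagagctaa
Gm28661: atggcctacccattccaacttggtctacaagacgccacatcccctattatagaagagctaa
mt-Nd3: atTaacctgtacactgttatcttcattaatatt
Gm28438: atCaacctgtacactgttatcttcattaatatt
mt-Co1: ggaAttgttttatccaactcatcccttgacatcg
Gm29216: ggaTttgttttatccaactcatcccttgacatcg
Counted from the first base of the mitochondrial gene, the substitutions are T3C in mt-Nd3 and A1066T in mt-Co1. The values of mt-Co2, mt-Co3, mt-Atp6, mt-Nd3 and mt-Nd4l are therefore uncertain, and those of mt-Nd4, of which the copy covers 63.6%, less so. mt-Nd6 lies on the opposite strand from its neighbours, and whether counting used the strand is not given in the sources used here.

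Comparison of Control libraries asked how microglia from each isolation differ without HMGB1. The Protocol 3 Controls cannot be taken as resting cells. They held Tnf at 1038 to 1325 CPM and Il1b, another inflammatory cytokine gene, at 931 to 1246 CPM. The other Controls held at most 34.2 and 11.3 CPM. Cultured cells had higher levels of nearly all nuclear members than the acutely isolated cells of Protocol 3. In Protocol 1, with its 3 culture conditions weighted equally, 82 of 90 nuclear members were higher than in Protocol 3 and 5 were lower at an adjusted p below 0.05 (edgeR quasi-likelihood test, Benjamini-Hochberg over all genes). Of all 17033 genes tested, 37.3% were higher and 42.9% lower. The median log2 difference was 1.38, a 2.60-fold higher level, where the median of all genes was -0.12. In Protocol 2, 81 of 90 nuclear members were higher than in Protocol 3 and 3 were lower, against 40.1% and 37.2% of all genes, with a median log2 difference of 1.43 beside 0.08 for all genes. Both comparisons use the same 3 Protocol 3 Controls. The paper reports lower RNA yield and integrity scores for the acutely isolated adult cells than for the cultured adult cells. The part of RNA quality in both comparisons was not tested. In each comparison 66 of the nuclear members that passed differed by at least 2-fold, and how many of all genes did so was not counted. With total counts in place of TMM scaling the counts were 84 higher and 3 lower for Protocol 1, and 86 and 2 for Protocol 2.

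The difference held in each complex. For complex I, which takes electrons from NADH, 35 of 36 members were higher and 1 was lower in both comparisons, with medians of 1.60 and 1.63. All 4 subunits of complex II, succinate dehydrogenase, were higher, with medians of 1.51 and 1.75. For complex III, 7 of 8 were higher in both, for complex IV 12 and 13 of 16, and for complex V 16 and 12 of 16. Among the assembly factors with Ndufa4l2 and Atp5s, 8 of 10 were higher in Protocol 1 and 10 of 10 in Protocol 2.

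**Figure D2:**
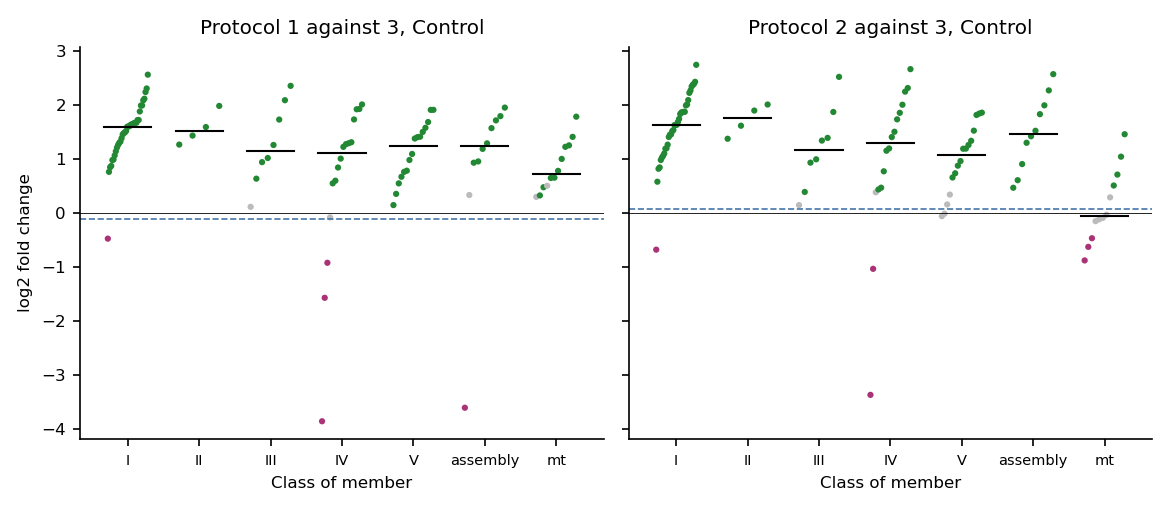
log2 fold change of every tested member between Control libraries, by class of member (complexes I to V, assembly factors with Ndufa4l2 and Atp5s, and mitochondrially encoded genes, mt), for Protocol 1 against 3 (left) and Protocol 2 against 3 (right). Green points passed upward, magenta points passed downward and grey points did not pass, black lines are class medians, and the blue dashed line is the median of all genes, -0.12 and 0.08. The nuclear classes lie above the line, and the mitochondrial class of Protocol 2 has a median of -0.07.

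Among the larger differences were those of small accessory proteins. Uqcr10, a small subunit of complex III, was at 7.58, 8.95 and 9.49 CPM in the Protocol 3 Controls, 53.7, 54.2 and 50.4 CPM in Protocol 2, and 35.9 to 54.8 CPM with a median of 45.4 in the 9 libraries of Protocol 1. Every cultured library stood above every acute one. The log2 difference was 2.35 ± 0.09 (SE) for Protocol 1 (adjusted p = 2.301e-15) and 2.52 ± 0.10 for Protocol 2 (adjusted p = 7.843e-15). Ndufc1, an accessory subunit of complex I, was at 3.53, 3.63 and 4.43 CPM in Protocol 3, 28.8, 28.4 and 25.3 CPM in Protocol 2, and 21.4 to 28.4 CPM, median 22.4, in Protocol 1. Here too the groups did not overlap, with log2 differences of 2.56 ± 0.10 and 2.74 ± 0.11 (edgeR adjusted p = 2.645e-15 and 8.151e-15). Sdhc, a membrane anchor of complex II, was at 25.7 to 27.9 CPM in Protocol 3, 97.8 to 122 CPM in Protocol 1 and 102 to 113 CPM in Protocol 2. Cox6c and Atp5j, accessory subunits of complexes IV and V, differed by 1.92 and 1.91 in Protocol 1 and by 2.31 and 1.84 in Protocol 2 on the log2 scale, and all 4 differences passed.

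Several abundant catalytic and core subunits differed little. Atp5b was at 551, 535 and 473 CPM in Protocol 3, 544, 504 and 534 CPM in Protocol 2, and 560 to 665 CPM, median 581, in Protocol 1. Protocols 2 and 3 overlapped, and Protocol 1 lay just above Protocol 3. The log2 difference was 0.14 ± 0.06 for Protocol 1 (edgeR adjusted p = 0.04161), a call lost with DESeq2 and without Protocol 3 Control replicate 3, and -0.06 ± 0.08 for Protocol 2, which did not pass. Atp5a1, the alpha subunit of the same catalytic head, differed by 0.35 ± 0.06 in Protocol 1, which passed, and by -0.02 ± 0.07 in Protocol 2, which did not. Uqcrc2, a core protein of complex III, passed in neither, at 0.11 and 0.14. Ndufs8, an iron-sulphur subunit of complex I, went the other way: it was at 73.5, 60.6 and 51.5 CPM in Protocol 3, 42.5, 39.2 and 40.7 CPM in Protocol 2, and 39.97 to 54.2 CPM in Protocol 1. Its log2 differences of -0.48 ± 0.08 and -0.68 ± 0.10 both passed (edgeR adjusted p = 2.394e-05 and 6.065e-06), although 1 library of Protocol 3 lay within the range of Protocol 1.

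Complex IV and V have subunits that exist as alternative isoforms, and these did not move together. Cox4i1, the widespread form of subunit 4, was 0.59 higher in Protocol 1 and 0.46 higher in Protocol 2 on the log2 scale, whereas Cox4i2, its lung and hypoxia-associated form, was lower in both, by 3.86 ± 0.57 and 3.37 ± 0.78. Cox4i2 stayed low everywhere, at 3.38, 1.79 and 2.85 CPM in Protocol 3 and at most 0.480 CPM in Protocols 1 and 2. Cox6a2, the heart and muscle form of subunit 6a, was at 7.54, 7.66 and 7.92 CPM in Protocol 2 against 0.871, 1.499 and 1.06 CPM in Protocol 3 and 0.0867 to 1.32 CPM in Protocol 1. Its level in Protocol 2 lay above all other Control libraries, with a log2 difference from Protocol 3 of 2.66 ± 0.35 (edgeR adjusted p = 8.067e-07), while the widespread form Cox6a1 was 1.40 higher. Ndufa4l2, a hypoxia-induced paralogue of Ndufa4, was also highest in Protocol 2, at 1.49 to 2.20 CPM in Protocol 2, 0.154 to 0.677 CPM in Protocol 3 and at most 0.0867 CPM in Protocol 1. Of the 3 genes that encode the same c-ring subunit of ATP synthase, Atp5g2 was 1.68 and 1.26 higher on the log2 scale, Atp5g3 0.76 and Atp5g1 0.67 higher in Protocol 1, while in Protocol 2 their differences of 0.34 and 0.15 did not pass.

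Counted gene by gene, most mitochondrially encoded members were higher than in Protocol 3 in Protocol 1 and not in Protocol 2. Their summed share of counts, in which mt-Co1 weighs most, was higher in both. In Protocol 1, 10 of 12 were higher than in Protocol 3 and none was lower, beside 37.3% and 42.9% of all genes. The median log2 difference was 0.71. In Protocol 2, 4 of 12 were higher and 3 lower, with a median of -0.07. Both are smaller shares than the 40.1% and 37.2% of all genes. mt-Co1 was at 2017, 1878 and 1842 CPM in Protocol 3, 5739, 5605 and 5326 CPM in Protocol 2, and 5642 to 8664 CPM, median 6793, in Protocol 1. It was higher in both cultures without overlap with Protocol 3, by 1.78 ± 0.10 and 1.46 ± 0.11 on the log2 scale (edgeR adjusted p = 6.832e-13 and 1.424e-10). mt-Nd1 was at 615, 586 and 584 CPM in Protocol 3, 555, 412 and 396 CPM in Protocol 2, and 1037 to 1370 CPM, median 1218, in Protocol 1. It was thus highest in Protocol 1 and lowest in Protocol 2, with log2 differences from Protocol 3 of 1.00 ± 0.10 and -0.47 ± 0.12, both past the threshold. mt-Cytb, the haem protein of complex III, had the same order, with 0.64 ± 0.10 in Protocol 1 and -0.63 ± 0.12 in Protocol 2. mt-Nd2, a membrane subunit of complex I, was 0.32 ± 0.14 higher in Protocol 1, a call lost with DESeq2 or without any 1 of the Protocol 3 libraries, and 0.88 ± 0.16 lower in Protocol 2 (edgeR adjusted p = 0.0002049). mt-Nd5 and mt-Nd6 were higher in both, by 1.25 and 0.71 and by 1.41 and 1.04. With total counts, 5 mitochondrial members were higher and 2 lower in Protocol 2. Without Control replicate 2, the library with little mitochondrial rRNA, the Protocol 2 count was 7, the same as with it.

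**Figure D3:**
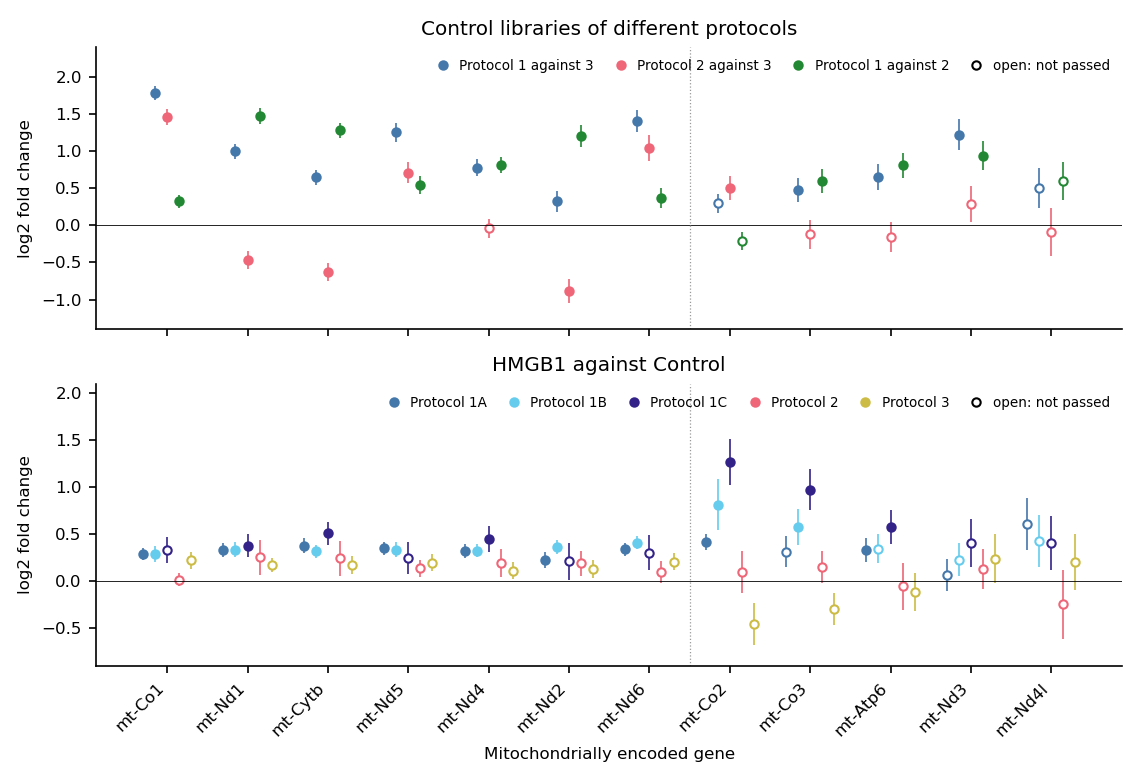
log2 fold change of the 12 tested mitochondrially encoded genes between Control libraries (top) and for HMGB1 against Control in each protocol (bottom), with SE as error bars. Filled points passed at an adjusted p below 0.05 and open points did not, and the genes right of the dotted line are those with a nuclear copy over nearly their whole length. In the top panel mt-Nd1, mt-Cytb and mt-Nd2 lie above 0 for Protocol 1 and below 0 for Protocol 2, and in the bottom panel all 12 genes lie above 0 in Protocols 1A, 1B and 1C with TMM scaling, where 1, 2 and 2 of them do with total counts.

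Set against each other, the 2 kinds of culture differed in the mitochondrial members and little in the nuclear ones. In Protocol 1 against Protocol 2, 10 of 12 mitochondrial members were higher and none was lower, with a median log2 difference of 0.70, while 12 of 90 nuclear members were higher and 22 lower, against 24.6% and 30.7% of all genes, with a median of -0.02. mt-Nd1, mt-Cytb and mt-Nd2 were 1.47 ± 0.11, 1.28 ± 0.11 and 1.20 ± 0.14 higher in Protocol 1. mt-Co1 was 0.33 ± 0.09 higher and mt-Co2 did not pass, at -0.21 ± 0.13. Scaling by total counts turned the nuclear count to 29 higher and 14 lower. Nuclear members that were lower in Protocol 1 included Cox6c, by 0.39 ± 0.07, and Sdhb, the iron-sulphur subunit of complex II, by 0.42 ± 0.07, and those that were higher included Uqcrfs1, the Rieske protein of complex III, by 0.39 ± 0.08 and Atp5a1 by 0.37 ± 0.06.

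Within Protocol 1 the culture conditions were compared one at a time. Without GM-CSF (Protocol 1B against 1A), 15 of 90 nuclear members were higher and 2 lower, beside 18.2% and 12.6% of all genes. Ndufa4, a subunit of complex IV, was at 63.5, 61.1 and 66.3 CPM in Protocol 1B and 46.7, 54.9 and 50.9 CPM in Protocol 1A, with no overlap and a log2 difference of 0.36 ± 0.09 (edgeR adjusted p = 0.003528). Sdhb was lower by 0.34 ± 0.09. No mitochondrial member passed, none had an unadjusted p below 0.05 and none passed with DESeq2. The nuclear count was 7 without Protocol 1A Control replicate 1, 11 without Control replicate 3, and 9 without Protocol 1B Control replicate 2 or 3. A fit of the 2 groups alone gave 32 nuclear and 1 mitochondrial members. With a longer culture (Protocol 1C against 1A), 1 nuclear member was higher and 4 were lower, beside 13.1% and 7.91% of all genes. The 4 were Atp5o, Atp5f1, Ndufs6 and Uqcrq, lower by 0.44, 0.24, 0.38 and 0.32, and the 1 was Cox6a2. Of the mitochondrial members none passed, 1 had an unadjusted p below 0.05, with a lower level, and none passed with DESeq2. The nuclear count was 7 without Protocol 1C Control replicate 3, 8 with median-of-ratios factors, 9 without the filter on low counts, 10 with DESeq2 and 16 with total counts, and it was 1 in a fit of the 2 groups alone. It fell to 3, 1 and 2 without Protocol 1A Control replicate 1, Protocol 1A Control replicate 2 and Protocol 1C Control replicate 1, and the mitochondrial count rose to 1 and 2 without Protocol 1A Control replicate 3 and Protocol 1C Control replicate 3.

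Genes that work with the respiratory chain were counted in 5 lists, to be read beside the 37.3% of all genes that were higher and 42.9% that were lower in Protocol 1, and the 40.1% and 37.2% in Protocol 2. Of 37 assembly factors, proteins that build the complexes, 28 were higher in Protocol 1 than in Protocol 3 and 7 lower, and 28 and 3 in Protocol 2. Coa3, which stabilises newly made COX1, was at 7.22, 5.90 and 6.94 CPM in Protocol 3, 45.1, 42.9 and 46.2 CPM in Protocol 2 and 33.6 to 39.3 CPM in Protocol 1, with no overlap and log2 differences of 2.38 ± 0.08 and 2.66 ± 0.09. Of 10 electron carriers and partners, 6 and 7 were higher and 1 was lower in each. Slc25a4, an ADP/ATP carrier, was 2.27 ± 0.09 and 2.39 ± 0.10 higher, whereas its paralogue Slc25a5 was at 276 to 290 CPM in Protocol 3, 263 to 296 CPM in Protocol 2 and 222 to 339 CPM in Protocol 1, overlapping groups that did not pass.

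In the other 3 lists, members passed in both directions, beside the same shares of all genes. Of 15 genes for copying and transcribing mitochondrial DNA, 8 were higher and 4 lower in Protocol 1, and 7 and 4 in Protocol 2, with Polrmt, the mitochondrial RNA polymerase, 1.11 and 0.83 higher and Tfam, which packages mitochondrial DNA and starts its transcription, 0.32 and 0.65 lower, the first of which turned to 0.13 higher with total counts. Of 17 genes for mitochondrial RNA processing, 7 were higher and 6 lower in both. Of 11 transcriptional regulators, 2 were higher and 8 lower in Protocol 1, and 1 and 7 in Protocol 2. Ppargc1b, a coactivator of genes for mitochondrial biogenesis, was higher by 2.62 ± 0.23 and 2.51 ± 0.25, and Pprc1, its relative, was at 255, 257 and 248 CPM in Protocol 3 and 45.4 to 67.5 CPM in the 12 other Controls. Nrip1, a corepressor of such genes, was lower by 3.49 and 3.33, and Yy1 by 0.99 and 1.39.

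Promoters of the nuclear members carried binding letters of known regulators of these genes more often than promoters at large. RefSeq sequences of GRCm38.p6, from 250 bases before to 50 after the start, matched 74 of the 94 nuclear members. The letters GCGCATGC, bound by NRF1, were in 16.2% of them and in 3.05% of 27025 promoters of all genes. AAGATGGCG, bound by YY1, was in 10.8% against 1.64%, TCAAGGTCA, bound by ERR alpha, in 2.70% against 0.466%, and ACTTCCGG, bound by GABP and other ETS factors, in 6.76% against 4.31%. The NRF1, YY1, ERR alpha and ETS letters were in 12, 8, 2 and 5 of the 74 member promoters, so the ERR alpha and ETS shares rest on few genes. Both strands were searched, the NRF1 letters overlap themselves across strands, and any of the 4 was in 35.1% against 8.93%. A match describes the letters and is no evidence of binding. The promoters below are shown for a member with among the largest culture differences (Ndufc1), for the nuclear member of highest level per length in Protocol 1A Controls (Cox8a) and for members that fell with HMGB1 in Protocol 1 (Ndufs7 and Ndufaf4), with the matched letters in capitals: YY1 in Ndufc1 and Ndufs7, ETS at 2 places in Cox8a and NRF1 in Ndufaf4. The windows are chr3:51408906-51409205 (minus strand), chr10:80249199-80249498 (plus), chr19:7217567-7217866 (minus) and chr4:24897833-24898132 (plus).
Ndufc1: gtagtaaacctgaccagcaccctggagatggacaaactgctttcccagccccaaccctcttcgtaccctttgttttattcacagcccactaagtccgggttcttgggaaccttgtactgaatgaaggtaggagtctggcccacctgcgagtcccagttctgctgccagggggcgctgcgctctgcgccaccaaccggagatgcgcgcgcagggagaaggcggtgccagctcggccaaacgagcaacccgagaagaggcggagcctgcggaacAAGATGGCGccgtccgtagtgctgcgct
Ndufs7: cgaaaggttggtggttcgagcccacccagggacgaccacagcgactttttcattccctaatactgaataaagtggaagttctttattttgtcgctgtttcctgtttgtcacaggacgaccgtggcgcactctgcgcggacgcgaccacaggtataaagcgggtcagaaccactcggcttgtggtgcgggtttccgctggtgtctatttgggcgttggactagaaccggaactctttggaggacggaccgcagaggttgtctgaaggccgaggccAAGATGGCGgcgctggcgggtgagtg
Cox8a: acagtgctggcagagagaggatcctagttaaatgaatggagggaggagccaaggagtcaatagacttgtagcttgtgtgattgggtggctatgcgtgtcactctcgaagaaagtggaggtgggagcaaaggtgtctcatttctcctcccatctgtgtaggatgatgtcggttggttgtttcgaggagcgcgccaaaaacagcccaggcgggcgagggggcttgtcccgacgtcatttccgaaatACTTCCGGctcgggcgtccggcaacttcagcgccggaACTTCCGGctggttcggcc
Ndufaf4: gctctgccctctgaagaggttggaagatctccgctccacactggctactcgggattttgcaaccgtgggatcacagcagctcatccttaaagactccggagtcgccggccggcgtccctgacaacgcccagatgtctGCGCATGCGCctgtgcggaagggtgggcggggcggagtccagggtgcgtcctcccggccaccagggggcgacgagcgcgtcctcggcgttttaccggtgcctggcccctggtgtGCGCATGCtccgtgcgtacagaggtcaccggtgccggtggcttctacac
In Ndufc1 and Ndufs7 the YY1 letters begin 23 and 25 bases from the start.

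Treatment with HMGB1 for 4 h addressed how each preparation responds to an inflammatory signal. With TMM scaling, 31 of 86 nuclear members rose and 4 fell in Protocol 1A, beside 29.7% and 31.6% of all genes. In Protocol 1B 30 of 87 rose and 5 fell, beside 29.8% and 32%, and in Protocol 1C 21 of 87 rose and 7 fell, beside 28.4% and 31.8%. The shares of members that rose are near those of all genes, while the shares that fell are smaller. Median log2 fold changes were 0.15, 0.15 and 0.18. No nuclear member that passed changed by 2-fold in Protocol 1A.

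The direction of these rises depends on the scaling. HMGB1 libraries of Protocol 1 had TMM factors of 0.73 to 0.91 and Controls 1.14 to 1.25, so that scaling by total counts moved the median of all genes to -0.46, -0.50 and -0.67 in Protocols 1A, 1B and 1C, from -0.04, -0.02 and -0.04. Under total counts no nuclear member rose and 58, 67 and 56 fell, beside 7747 of 13489, 7850 of 13598 and 8578 of 14328 genes that fell. The share of counts in nuclear subunits went from 0.689% to 0.714% in the Protocol 1A Controls to 0.583% to 0.614% with HMGB1. Relative to the median of all genes the nuclear members lay 0.18, 0.17 and 0.22 higher under either scaling. Rises below are therefore relative to the other genes of the library, and the falls named below had lower values under both scalings.

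**Figure D4:**
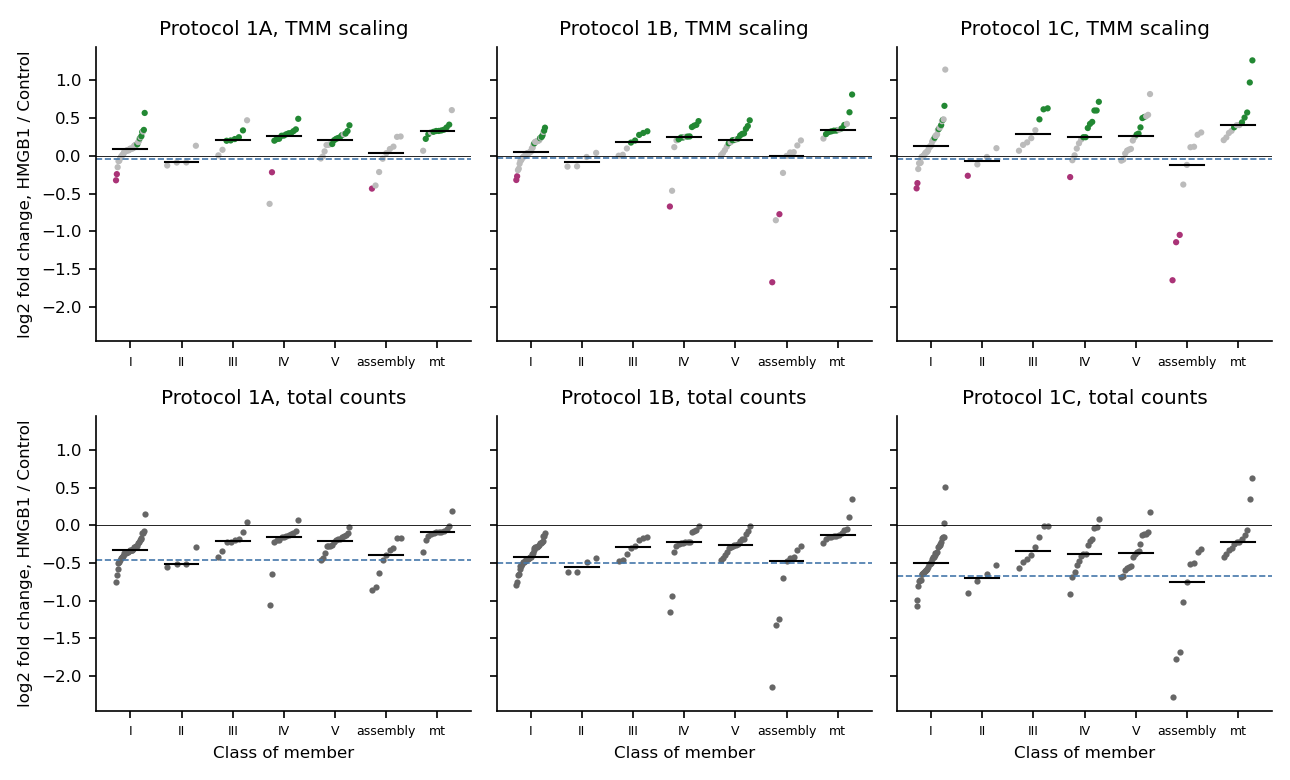
log2 fold change of every tested member for HMGB1 against Control in Protocols 1A, 1B and 1C, by class (complexes I to V, assembly factors with Ndufa4l2 and Atp5s, and mitochondrially encoded genes, mt), under TMM scaling (top) and total counts (bottom). Green and magenta points passed upward and downward, grey points did not pass (dark grey, below, carry no call), black lines are class medians and the blue dashed line is the median of all genes. Most members lie above 0 at the top and below 0 at the bottom, and in both rows most lie above the blue line.

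By complex, the rises were most frequent in complexes III, IV and V. With TMM scaling, in Protocols 1A, 1B and 1C, complex IV had 11 of 13, 9 of 14 and 8 of 14 members that rose, complex V 9, 10 and 5 of 16, and complex III 5, 5 and 3 of 8. Complex I had 6, 6 and 5 of 36, complex II none of 4 in any, and the assembly factors with Atp5s none of 9. Of all genes, 29.7%, 29.8% and 28.4% rose, and complex V in Protocol 1C lay near that share. Whether complexes differ from each other was not tested. Of the 31, 30 and 21 nuclear members that rose, 16 rose in all 3 protocols: Atp5a1, Atp5b, Atp5f1, Atp5j, Cox5a, Cox6b1, Cox6c, Cox7a2, Cox7b, Cox7c, Ndufa4, Ndufc1, Ndufs4, Uqcrfs1, Uqcrh and Uqcrq. With total counts none of them passed upward. How many of all genes rose in all 3 protocols was not counted.

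Cox7a2, a small subunit at the interface of complex IV with its partners, was at 60.7, 63.3 and 71.4 CPM in Protocol 1A Controls and 99.2, 88.1 and 92.0 CPM with HMGB1. In Protocol 1B it was at 64.5, 61.7 and 63.8 CPM and 81.1, 83.2 and 86.9 CPM, and in Protocol 1C at 51.9, 61.6 and 66.2 CPM and 100, 95.7 and 98.0 CPM. The groups did not overlap in any, with log2 fold changes of 0.49 ± 0.07, 0.41 ± 0.06 and 0.72 ± 0.10 (edgeR adjusted p = 5.308e-05, 0.0001352 and 5.562e-05), which were 0.07, -0.06 and 0.09 with total counts. Atp5b rose by 0.41 ± 0.07, 0.47 ± 0.06 and 0.38 ± 0.09 with TMM scaling and was at -0.02, -0.00 and -0.25 with total counts. Ndufs4, an accessory subunit of complex I needed for its full activity, rose by 0.57 ± 0.09, 0.37 ± 0.09 and 0.36 ± 0.11, and with total counts stood above 0 in Protocol 1A alone, at 0.15.

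A smaller set of members fell in all 3 neonatal cultures. Of 4, 5 and 7 nuclear members that fell, 4 were shared: Cox7a2l, Ndufaf4, Ndufs7 and Ndufv3. Ndufaf4, an assembly factor of complex I, went from 10.8, 11.01 and 11.9 CPM to 9.22, 8.66 and 7.43 CPM in Protocol 1A, from 11.6, 11.98 and 10.4 CPM to 8.02, 5.50 and 6.41 CPM in Protocol 1B and from 13.1, 12.4 and 10.1 CPM to 6.19, 5.72 and 5.24 CPM in Protocol 1C. No HMGB1 library overlapped its Controls, and the log2 fold changes were -0.43 ± 0.13, -0.77 ± 0.16 and -1.05 ± 0.17 (edgeR adjusted p = 0.01076, 0.001414 and 0.0001862). The first of these calls was lost without HMGB1 replicate 3. Cox7a2l, counted with complex IV by its name and a factor for joining complexes III and IV into supercomplexes, went from 123, 118 and 106 CPM to 74.2, 68.4 and 73.6 CPM in Protocol 1B, a log2 fold change of -0.67 ± 0.07 (adjusted p = 1.305e-05), and fell by 0.22 and 0.28 in Protocols 1A and 1C. Ndufs7, an iron-sulphur subunit of complex I, fell by 0.24 ± 0.07, 0.32 ± 0.07 and 0.36 ± 0.10, and the Protocol 1A call was lost with DESeq2 or without Control replicate 3, the Protocol 1C call without HMGB1 replicate 2. Ndufv3, a flavoprotein-module subunit, fell by 0.32, 0.27 and 0.43, and DESeq2 passed none of these 3 values, nor that of Cox7a2l in Protocol 1A.

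Ndufaf7, which methylates a core subunit during complex I assembly, had the steepest fall and did so in 2 of the 3 protocols. It went from 10.8, 11.8 and 12.9 CPM to 4.37, 3.15 and 3.58 CPM in Protocol 1B and from 9.39, 9.43 and 6.74 CPM to 2.32, 3.73 and 2.12 CPM in Protocol 1C, with no overlap and log2 fold changes of -1.67 ± 0.16 and -1.65 ± 0.25 (edgeR adjusted p = 6.144e-06 and 0.0001302). In Protocol 1A it was at 7.92, 9.32 and 8.004 CPM and then 6.62, 8.96 and 6.496 CPM, overlapping groups with a log2 fold change of -0.21 ± 0.16 that did not pass. The difference between the responses was itself past the threshold, at -1.49 ± 0.31 for Protocol 1B minus 1A and -1.47 ± 0.31 for 1C minus 1A (adjusted p = 0.001573 and 0.001369).

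With TMM scaling, 9, 9 and 6 of 12 mitochondrially encoded members rose in Protocols 1A, 1B and 1C and none fell. Among all genes 29.7%, 29.8% and 28.4% rose and 31.6%, 32% and 31.8% fell. Median log2 fold changes of the members were 0.33, 0.34 and 0.41. With total counts no member rose and 2 and 3 fell in Protocols 1A and 1B, while 1 member rose in Protocol 1C. Against the median of all genes they lay 0.37, 0.36 and 0.45 higher with TMM scaling. mt-Co2, mt-Cytb, mt-Nd1 and mt-Nd4 rose in all 3, and mt-Co2 is one of the genes with a nuclear copy. mt-Nd1 went from 1308, 1251 and 1181 CPM to 1675, 1627 and 1490 CPM in Protocol 1A, from 1370, 1144 and 1218 CPM to 1590, 1602 and 1494 CPM in Protocol 1B, and from 1353, 1216 and 1037 CPM to 1634, 1516 and 1518 CPM in Protocol 1C. The groups did not overlap, and the log2 fold changes with TMM scaling were 0.33 ± 0.07, 0.34 ± 0.08 and 0.38 ± 0.12 (edgeR adjusted p = 0.001147, 0.002756 and 0.01487), the last of which was lost without Control replicate 3 or HMGB1 replicate 1. In Protocol 1C the count was 10 without Control replicate 1, and 3 without Control replicate 3, without HMGB1 replicate 1 or without the members copied over nearly their whole length, and the nuclear count was 16 without HMGB1 replicate 2.

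In Protocol 2 none of 89 nuclear and none of 12 mitochondrial members passed with edgeR, beside 1.21% of all genes that rose and 0.283% that fell. At an unadjusted p below 0.05, 1 nuclear member was higher and 7 were lower, and DESeq2 called 1 nuclear member higher. Without the filter on low counts 2 nuclear members passed, 1 in each direction, and without HMGB1 replicate 2 the count was 1. Same-numbered libraries of Protocol 2 deviated together, and with the replicate number as a block 5 mitochondrial members rose, namely mt-Nd1, mt-Cytb, mt-Nd2, mt-Nd4 and mt-Nd5, while Ndufa12 rose and Ndufs8, Sdhb, Uqcrb and Cox7a2l fell. The same block called 721 of all 15564 genes higher and 515 lower. mt-Nd1 was at 555, 412 and 396 CPM in Controls and 660, 499 and 476 CPM with HMGB1. The groups overlapped and each treated library lay above its same-numbered Control. Its log2 fold change was 0.26 with the block (adjusted p = 5.658e-07) and 0.25 ± 0.18 without (adjusted p = 0.8353).

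In Protocol 3 likewise no member passed with edgeR, beside 0.123% of all genes that rose and 0% that fell. At an unadjusted p below 0.05, 1 nuclear member was higher and 8 were lower, 4 mitochondrial members were higher, and DESeq2 called none. Without the filter on low counts 1 mitochondrial member passed, with a lower level. With the block, which called 262 of all 15401 genes higher and 72 lower, mt-Nd1 rose by 0.17 (adjusted p = 0.02515), mt-Co2, which has a nuclear copy, fell by 0.50 (adjusted p = 0.003835) and Cox5b, a zinc-holding subunit of complex IV, fell by 0.36 (adjusted p = 0.006189). Cox5b was at 30.4, 30.2 and 31.4 CPM in Controls and 23.9, 21.1 and 25.7 CPM with HMGB1, without overlap.

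The responses of the protocols were compared directly. For Protocol 2 minus Protocol 1, the response of 2 nuclear members was higher and of 28 lower out of 90, beside 22.9% and 20.6% of all genes, with TMM scaling, and total counts turned this to 46 higher and none lower. Without the filter on low counts 19 nuclear members passed. For Protocol 3 minus Protocol 1, 5 were higher and 39 lower, beside 20.2% and 22.5%, and total counts gave 31 higher and none lower. With Protocol 1A alone as Protocol 1, 29 nuclear and 0 mitochondrial members passed for Protocol 3. Total counts moved the median of all genes from 0.06 to 0.55 for Protocol 2, with 8402 of 18182 genes higher and 1915 lower, and from 0.00 to 0.49 for Protocol 3, with 7541 higher and 2019 lower. Cox7a2 differed by -0.64 ± 0.09 in Protocol 2 and -0.49 ± 0.10 in Protocol 3, and Atp5b by -0.38 ± 0.08 and -0.47 ± 0.08, with TMM scaling. Among mitochondrial members, mt-Co1 and mt-Co2 passed for Protocol 2, at -0.28 ± 0.11 and -0.73 ± 0.29, and mt-Co2 and mt-Co3 for Protocol 3, at -1.30 and -0.93, where both genes have a nuclear copy. With the replicate block 6 mitochondrial members passed for Protocol 3, all lower, among them mt-Nd1, mt-Nd4 and mt-Cytb, which have no copy over their whole length, at -0.21, -0.28 and -0.26 (edgeR adjusted p = 0.01548, 0.003671 and 0.006138). The Protocol 2 count of 2 was 0 with Protocol 1A alone as Protocol 1, and 0 to 3 when single libraries were left out. The responses of Protocols 1B and 1A differed in 2 nuclear members, lower in both, beside 3.7% higher and 3.21% lower of all genes. These were Ndufaf7 and Cox7a2l, the latter by -0.48 ± 0.11. For Protocol 1C minus 1A, Cox6b2, a testis form of subunit 6b at most 0.744 CPM in these libraries, was higher and Ndufaf7 and Ndufs1 were lower, beside 5.46% and 8.53% of all genes. That count was 7 without Protocol 1C Control replicate 3. No mitochondrial member passed in either comparison within Protocol 1, where DESeq2 called none for 1B minus 1A and 1 higher for 1C minus 1A, and an unadjusted p below 0.05 was reached by none and by 1.

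Several partner genes of the chain changed by more than 2-fold in Protocol 1. AA467197 (Nmes1), an inflammation-induced paralogue of Ndufa4 that can take its place in complex IV, went from 5.69, 5.25 and 7.11 CPM to 50.6, 61.5 and 63.8 CPM in Protocol 1A, from 2.03, 1.65 and 2.34 CPM to 10.7, 22.9 and 19.4 CPM in Protocol 1B, and from 4.22, 4.59 and 7.98 CPM to 108, 147 and 173 CPM in Protocol 1C. The groups were far apart in each, with folds of 9.61, 8.93 and 25.4 (edgeR adjusted p = 8.486e-11, 1.915e-05 and 2.200e-05). In Protocol 2 it was at 11.7, 11.1 and 9.66 CPM and then 10.6, 12.9 and 13.2 CPM, and in Protocol 3 at 3.58, 4.69 and 3.06 CPM and then 3.15, 6.85 and 3.55 CPM, overlapping groups that did not pass. The difference from Protocol 1 was -3.52 ± 0.31 for Protocol 2 and -3.50 ± 0.38 for Protocol 3 (adjusted p = 2.868e-09 and 8.047e-08). Ndufa4 itself rose by 0.30, 0.24 and 0.25 with TMM scaling and was at -0.12, -0.23 and -0.38 with total counts.

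**Figure D5:**
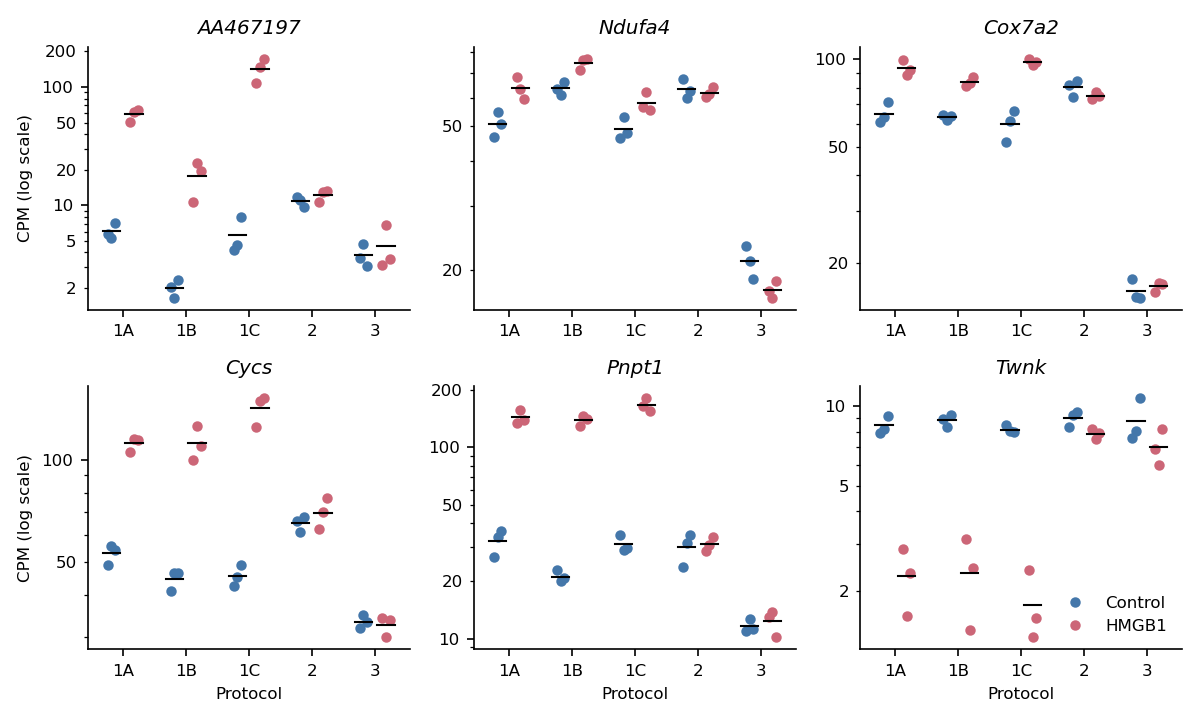
Level of 6 genes in every library in CPM on a log axis, by protocol, with Control in blue, HMGB1 in red and group means as black lines. AA467197, Cycs and Pnpt1 are higher and Twnk is lower after HMGB1 in all 3 neonatal cultures under both scalings, Ndufa4 and Cox7a2 are higher there with TMM scaling, while with total counts Ndufa4 lies below 0 in each and Cox7a2 at 0.07, -0.06 and 0.09 on the log2 scale, and none of the 6 passed in Protocols 2 and 3.

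Cycs, cytochrome c, which carries electrons from complex III to IV, rose from 49.0, 55.7 and 54.3 CPM to 106, 116 and 114 CPM in Protocol 1A, with log2 fold changes of 1.05 ± 0.07, 1.34 ± 0.10 and 1.65 ± 0.10 in the 3 neonatal cultures. The rise was also there with total counts, at 0.63, 0.86 and 1.02. Of the 10 electron carriers and partners, 5, 6 and 5 rose with TMM scaling and 1 fell in each. Of 37 or 36 tested assembly factors, 7, 8 and 6 rose and 12, 11 and 12 fell, beside 29.7%, 29.8% and 28.4% of all genes that rose and 31.6%, 32% and 31.8% that fell. Those of complex IV included Sco1, a copper chaperone, at 1.04, 1.31 and 2.17, Cox18, an insertase, at 1.39, 1.77 and 1.66, and Coa5 at 1.31, 1.70 and 1.31 on the log2 scale, all of which stayed above 0 with total counts. Tmem126b, an assembly factor of complex I, went from 22.3, 21.7 and 25.4 CPM to 13.0, 12.2 and 11.4 CPM in Protocol 1A, and its log2 fold changes were -0.95 ± 0.10, -1.24 ± 0.10 and -1.66 ± 0.13.

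For the mitochondrial genome, Twnk, the helicase that unwinds it for copying, fell in all 3 neonatal cultures. It went from 7.92, 8.19 and 9.18 CPM to 2.87, 1.61 and 2.34 CPM in Protocol 1A, with no overlap, and log2 fold changes were -1.92 ± 0.21, -1.91 ± 0.24 and -2.16 ± 0.24. Of the genes for copying and transcription, 4 of 14, 2 of 13 and 4 of 14 rose and 4, 6 and 7 fell. These counts and those of the lists below stand beside 29.7%, 29.8% and 28.4% of all genes that rose. The shares of all genes that fell were 31.6%, 32% and 31.8%. Polrmt fell by 0.58, 0.52 and 0.88, and Tfam rose by 0.50 in Protocol 1A and 0.36 in Protocol 1C with TMM scaling, where total counts gave 0.08 and -0.26. Pnpt1, a mitochondrial RNA nuclease that is induced by interferon, went from 26.8, 33.9 and 36.5 CPM to 134, 157 and 140 CPM in Protocol 1A, with log2 fold changes of 2.13 ± 0.11, 2.73 ± 0.08 and 2.43 ± 0.10, and 1.71, 2.25 and 1.80 with total counts. The other genes of mitochondrial RNA processing moved less, with 4, 6 and 2 of 17 that rose, Pnpt1 included, and 2, 2 and 6 that fell. Of 10 regulators of the nuclear genes 4, 5 and 3 rose and 4 fell in each, among them Gabpb1, a subunit of the ETS factor GABP, which rose by 1.00, 0.97 and 1.09 and by 0.58, 0.50 and 0.46 with total counts.

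The ratio of mitochondrial to nuclear member counts within a library does not depend on scaling between libraries. On the log2 scale, group means were 1.13 in Control and 1.25 with HMGB1 in Protocol 1A, 0.99 and 1.12 in Protocol 1B, 1.23 and 1.36 in Protocol 1C, and 0.57 and 0.69 in Protocol 2, with overlapping libraries in each. In Protocol 2 the ratio was 0.66, 0.61 and 0.44 in Controls and 0.84, 0.68 and 0.54 with HMGB1, higher in every same-numbered pair. In Protocol 3 it was 0.79, 0.70 and 0.79 in Controls and 0.86, 0.95 and 1.27 with HMGB1, without overlap and with a difference of 0.27 between means. Without HMGB1 replicate 3 that difference was 0.15. With every gene given equal weight the libraries overlapped, at 2.1, 1.97 and 1.86 in Controls and 2.11, 1.88 and 2.28 with HMGB1. The difference of the equal-weight means was 0.12 over all 3 libraries, and it was not computed without replicate 3. No test of the ratio was made, because it is a score over chosen members. With 3 libraries against 3 an exact permutation test could not give a two-sided p below 0.1. Between Control groups, the ratio was 0.36 higher in Protocol 1 than in Protocol 3, and 0.38 lower when every gene was given equal weight, and 0.22 lower without mt-Co1 and the most abundant nuclear member. Protocol 1 lay above Protocol 2 under each weighting, by 0.54, and by 0.84 with equal weights. For Protocol 2 against Protocol 3 the difference was -0.19, and -1.23 with equal weights.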

How the data were processed

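RNA of 30 microglia cultures or isolates was sequenced, 3 libraries for each of 10 groups. The authors deposited raw read counts per gene. The upstream tools recorded for them are HISAT2 2.0.5 and featureCounts 1.5.0-p3, of which the paper's methods name featureCounts. The genome build, the treatment of reads with several matches and the strand setting are not given in the sources used here. Counts were analysed as deposited.

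Genes were filtered with filterByExpr, scaled by TMM and tested with the quasi-likelihood test of edgeR 4.0.16 in R 4.3.3, at an adjusted p (Benjamini-Hochberg over all genes tested) below 0.05. SE is the size of the log2 fold change divided by the root of F. Responses used the 6 libraries of a protocol, Control comparisons the 15 Control libraries and differences between responses all 30 libraries. Printed CPM values were TMM-scaled over all libraries. DESeq2 1.42.0, other scalings and filters, a replicate block and leaving out each library were alternatives, and scaling by total counts and leaving out members with a nuclear copy were added after seeing the data. The scripts were tested on simulated data.

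Deviations of same-numbered libraries from their group means correlated above 0.1 for all 3 numbers in Protocol 2 (0.288, 0.185 and 0.180) and Protocol 3 (0.151, 0.131 and 0.186), which were taken as pairs. The main tests nevertheless used no block in any protocol, and values with the block are given beside them as an alternative. In every protocol these correlations exceeded those with differently numbered libraries, except in Protocol 1A replicate 1, with 0.018 against 0.035. In Protocols 1A, 1B and 1C they did not do so for all 3 numbers, with lowest values of 0.018, 0.096 and 0.052. Protocol 1B fell below 0.1 in replicate 1 alone, with 0.096, 0.234 and 0.307 for replicates 1, 2 and 3. Its values for replicates 2 and 3 were above those of Protocol 3. By the rule of all 3 numbers Protocol 1B was not taken as pairs, although most of its values passed 0.1. Where labels do not state separate animals, p-values measure the spread between these samples.

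The members and lists were chosen with earlier results of these data known. Genes were named by rule: in each comparison up to 2 per class that passed in each direction with the smallest adjusted p, the most abundant that did not pass, all mitochondrial members, isoform groups, up to 3 of each pathway list, and AA467197, Ppargc1b, Tfam and Polrmt. Their values in further comparisons, and those of a few other members, were added after their values were seen.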

Additional observations from a re-analysis of the deposited data

Results flagged for a closer look

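The response to HMGB1 differed between preparations by a test of the difference itself, with TMM scaling. It differed in 30 nuclear and 2 mitochondrial members between Protocols 2 and 1, and in 44 nuclear and 2 mitochondrial members between Protocols 3 and 1. It differed in 2 nuclear members between Protocols 1B and 1A, and in 3 between Protocols 1C and 1A. Protocols 2 and 3 were both set against the same Protocol 1 libraries. For the 30 and the 44 the direction turned when total counts were used, as given below.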

How the results depend on the processing

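Scaling by total counts had the largest effect. It gave 58, 67 and 56 nuclear and 2, 3 and 1 mitochondrial members in Protocols 1A, 1B and 1C, nearly all in the opposite direction, 43 nuclear for Control Protocol 1 against 2, 16 nuclear and 1 mitochondrial for 1C against 1A, 46 and 1 for the response of Protocol 2 minus 1, 31 and 3 for Protocol 3 minus 1, and 14 nuclear for 1C minus 1A. The fall in TMM factors with HMGB1 shows in these values, and its cause was not tested.

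DESeq2 gave 1 nuclear member in Protocol 2, 10 for 1C against 1A, and 8 with 1 mitochondrial for 1C minus 1A. Without a filter beyond 1 count, there were 2 nuclear in Protocol 2, 1 mitochondrial in Protocol 3, 9 and 1 for 1C against 1A, 19 nuclear for Protocol 2 minus 1, and 3 nuclear and 2 mitochondrial for 1C minus 1A. The replicate block gave 5 and 5 in Protocol 2, 1 and 2 in Protocol 3, 1 mitochondrial for 1C against 1A, 1 for Protocol 2 minus 1, 6 for Protocol 3 minus 1, and 8 nuclear for 1C minus 1A. With only the groups compared, 1B against 1A had 32 and 1 and 1C against 1A had 1. Median-of-ratios factors gave 8 for 1C against 1A and 5 for 1C minus 1A. With Protocol 1A alone, Protocol 2 minus 1 had 0 mitochondrial members, Protocol 3 minus 1 had 29 nuclear and 0 mitochondrial, and Ndufaf7 was -0.0345. Without members copied in the nucleus over nearly their whole length, mitochondrial counts were 3 in Protocol 1C, 1 for Protocol 2 minus 1 and 0 for Protocol 3 minus 1. With equal weights the ratio was -0.38, -1.23 and 0.84 for Protocols 1 against 3, 2 against 3 and 1 against 2, and -0.22, -1.18 and 0.96 without the most abundant members.

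Leaving out single libraries gave nuclear counts of 24 to 38, 28 to 38 and 16 to 30 in Protocols 1A, 1B and 1C, 0 to 1 in Protocol 2, 0 in Protocol 3, 85 to 88, 80 to 84 and 26 to 42 for Controls 1 against 3, 2 against 3 and 1 against 2, 7 to 13 for 1B against 1A, 1 to 7 for 1C against 1A, 24 to 32 and 32 to 47 for Protocols 2 and 3 minus 1, and 2 and 2 to 7 for 1B and 1C minus 1A. Mitochondrial counts were 7 to 9, 6 to 10, 3 to 10, 0 and 0 in the 5 protocols, 8 to 11, 7 to 8 and 9 to 11, then 0 and 0 to 2, and 0 to 3 and 2 to 3. The ratio ranged from 0.10 to 0.17, 0.08 to 0.20, -0.00 to 0.30, 0.04 to 0.19 and 0.15 to 0.35 for the responses, and from 0.30 to 0.40, -0.23 to -0.12 and 0.48 to 0.59 for the Controls. Low members rest on few counts, and Cox4i2, Cox6b2 and Ndufa4l2 are the least precise.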
